A study of Homo sapiens with 5 samples.

Results

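The genes described here build and control epithelial cell contacts and the keratin skeleton. A list of 47 symbols was used, and a gene entered when a feature of the array carried its symbol alone. Where several did, the brightest by mean level was used. This gave 38 of the 47 genes, out of 14232 genes measured in the series in all. Another 5 (CLDN2, EVPL, KRT5, CTNND1 and ESRP2) lay only in features shared with a second gene, and OCLN, F11R, MARVELD2 and KRT81 matched no named feature. Gene expression was measured on 5 Affymetrix exon arrays with total RNA of established human lung cancer lines. A549, which per the submitters carries a loss-of-function mutation of LKB1 and expresses much NEDD9, gave a control array (n = 1) and 1 array for each of 2 short hairpins that lower NEDD9 (n = 2). CRL-5907, per the submitters a line with wild-type LKB1 and little NEDD9, gave a control array and an array of cells overexpressing NEDD9 (n = 1 for each). The labels do not say whether the control cells carried a construct, whether cells were clones or pools, or whether arrays came from separate cultures, so any p-value below measures the spread between these arrays, which may be technical.

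Epithelial cells are joined by tight junctions, which seal the space between neighbours, by adherens junctions, which couple cadherins to actin through catenins, and by desmosomes, which anchor keratin filaments. Claudins form the tight junction strands, and ZO proteins and cingulin link them to the cytoskeleton. A small set of factors (the ESRP splicing regulators and the GRHL, OVOL and ETS transcription factors) keeps epithelial genes active, and ZEB and SNAI repressors act against it. NEDD9 is a scaffold protein of focal adhesions, and the design asks how lowering and raising it changes expression in lung cancer cells.

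All values are normalised log2 expression levels, so a difference of 1 is a 2-fold change. NEDD9 followed the labels, with levels of 8.94 on the A549 control, 8.35 and 8.52 with hairpins 1 and 2, 4.66 on the CRL-5907 control and 9.49 with overexpression. Both hairpins thus lowered it by less than 2-fold, and hairpin 2 by less than 1.5-fold. No detection call was used, and a level below its array's median (5.69 to 5.85) was not shown to exceed background. A gene therefore passed the level filter of a comparison when its brightest array there lay above that array's median. Marker genes of other cell types were mostly below it: 2 of 10 leukocyte markers (CD14 and NKG7), 1 of 8 fibroblast markers (COL1A1), 1 of 8 endothelial markers (CLDN5) and 0 of 6 neural and muscle markers exceeded the median on any array, and PTPRC, which defines leukocytes, was at 1.72 on every array. The log2 summed level of the leukocyte list ran from 8.01 to 8.16 in A549 and from 8.25 to 8.27 in CRL-5907, and its part in the results was not tested. Lung lineage markers (SFTPB, SFTPC, SFTPD, SCGB1A1 and FOXJ1) were all below the median, between 4.17 and 5.66. Several arrays can hold exactly the same normalised value: 13 of the 38 genes had such a tie, and for DSP, DSG3, PPL and GRHL1 it spanned all A549 arrays. As a scale for error, the difference between the hairpin arrays had an SD of 0.166 over the 7485 genes past the level filter in A549, and the middle 95% lay between -0.28 and 0.38.

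The junction genes differed between the lines, with CLDN4, CLDN7, EPCAM and EHF higher in CRL-5907 and KRT7, KRT8, KRT18 and KRT19 higher in A549. Between the control arrays 8 of the 28 genes past the filter were at least 2-fold higher in CRL-5907, namely CLDN4, CLDN7, CGN, PARD6B, DSC2, EPCAM, EHF and ST14. None was 2-fold higher in A549. Over all genes 5.0% were called in the first direction and 9.88% in the second. The median difference, A549 minus CRL-5907, was -0.21 over the 28 genes and 0.05 over all 7716 genes past the same filter. Of the 8 genes, 5 (CLDN4, CLDN7, CGN, DSC2 and ST14) were below the array median on the A549 control. They passed this filter only through the CRL-5907 control, where they are high, so the count and the median are given as descriptions. With both hairpins 0 of 21 genes passed 1.5-fold in either direction, where the background was 0.708% higher and 0.134% lower. With overexpression 0 of 28 were 1.5-fold higher (background 3.5%) and 1 was lower, CLDN7 (background 0.85%). The array RNA is a bulk sample, so fewer expressing cells and less RNA per cell cannot be told apart.

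**Figure D1:**
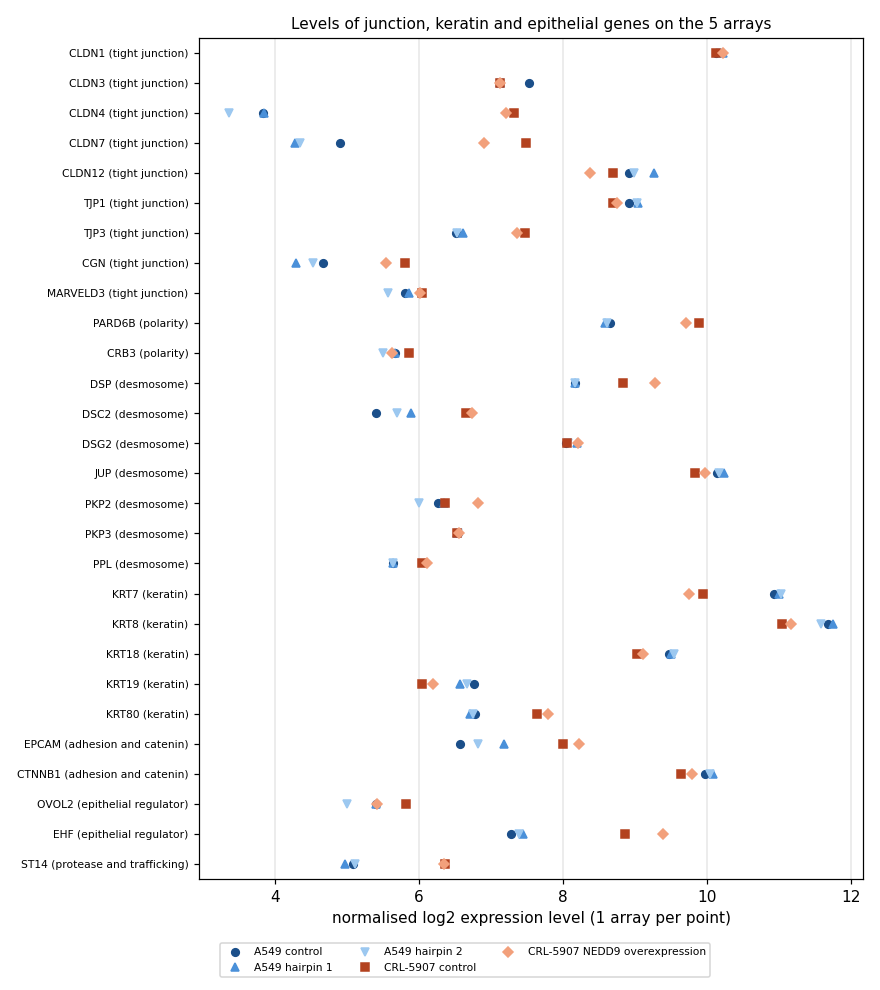
Normalised log2 level (horizontal axis) of the 28 genes past the level filter between the controls, 1 point per array and no error bar because each point is 1 array. CLDN4, CLDN7, EHF and ST14 show the A549 arrays (blue) well to the left of the CRL-5907 arrays (red and orange), and KRT7 shows the reverse.

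To give the line difference an error, limma was fitted over the 3 A549 and 2 CRL-5907 arrays, with NEDD9 state left in the spread (3 residual degrees of freedom). It called 20 of 28 genes with Benjamini-Hochberg adjustment, 12 higher in CRL-5907 and 8 higher in A549, with adjusted p from 0.000155 to 0.0343. The lines differ widely, and 17.7% and 31.8% of all 7987 tested genes were called in these directions. Of the 12, CLDN4, CLDN7, CGN, PPL and ST14 passed the level filter only through CRL-5907, where they are high. The filter thus favoured genes that differ in this direction, and the count is given as a description. CRB3 and OVOL2 also passed only through CRL-5907 and were not called. All 8 genes past 2-fold were among the 12. Without a test, the arrays of the lines did not overlap for 15 of the 28 genes on the CRL-5907 side, these 8 included, and for 8 on the A549 side, beside 26.9% and 41.0% of all genes tested. An additional quantile normalization changed the split over all genes from 64.2% higher in A549 to 50.9%, and that of the listed genes from 8 against 12 to 4 against 14. The 4 that stayed on the A549 side were KRT7, KRT8, KRT18 and KRT19. The count for A549 was also 4 without hairpin 1, without hairpin 2 or without the CRL-5907 control, and each time it was those keratins. The count for CRL-5907 stayed between 10 and 12 with any single array left out. CLDN12, TJP1, JUP and CTNNB1 lost their calls in these settings. Fewer of all 7987 genes were called too. On the A549 side 1950 were called without hairpin 1 and 1850 without hairpin 2, beside 2540 with all arrays. On the CRL-5907 side it was 1148 and 973, beside 1416. A lost call is therefore not read as a trait of a gene. Without the overexpression array the A549 count was 6, without CLDN12 and TJP1, and EPCAM and DSC2 lost their calls. DSC2 also lost its call without the CRL-5907 control.

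**Figure D2:**
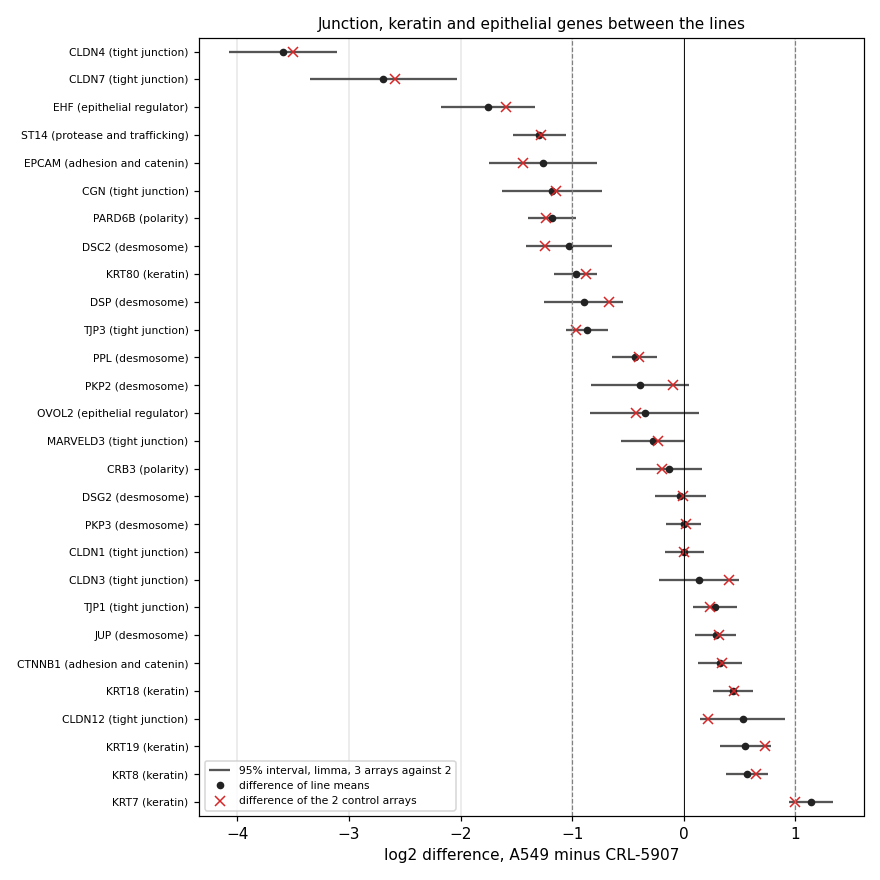
Log2 difference, A549 minus CRL-5907 (horizontal axis), for the 28 genes tested. Black points are differences of line means with limma's 95% interval, red crosses the differences of the control arrays, and dashed lines mark 2-fold. CLDN4 at -3.59 and KRT7 at 1.14 are the ends of the order.

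Tight junction genes held the widest gaps. CLDN4, a claudin of many glandular epithelia, had levels of 3.82, 3.83 and 3.36 on the A549 control, hairpin 1 and hairpin 2 arrays, against 7.32 and 7.20 on the CRL-5907 control and overexpression arrays. The arrays of the lines did not overlap, the controls differed 11.3-fold, and the limma estimate was -3.59 ± 0.19 (SE, adjusted p = 0.000155). CLDN7, a claudin that also binds EPCAM, was at 4.90, 4.27 and 4.34 in A549 and at 7.49 and 6.90 in CRL-5907. It too showed no overlap, with a 6.02-fold difference of the controls and a limma estimate of -2.69 ± 0.26 (adjusted p = 0.000908). Cingulin, CGN, which lies under the tight junction, was at 4.66, 4.29 and 4.52 in A549 and 5.80 and 5.54 in CRL-5907, with a 2.21-fold difference of the controls and an estimate of -1.18 ± 0.18 (limma adjusted p = 0.00402). For all 3 the A549 values lay below the array medians, and the CLDN4 and CLDN7 folds between the controls are read as lower bounds. CGN was near the medians in CRL-5907 too, at 5.80 on the control (median 5.69) and 5.54 with overexpression (median 5.70). Its fold is given without that reading. TJP3, the scaffold ZO-3, was at 6.51, 6.61 and 6.53 against 7.47 and 7.36, just short of 2-fold between controls at 1.95 and called by limma at -0.87 ± 0.08 (adjusted p = 0.000632).

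The other tight junction genes differed less between the lines or gave no clear comparison. CLDN1 was at 10.13, 10.23 and 10.19 in A549 and 10.13 and 10.23 in CRL-5907, with a limma interval of the difference from -0.17 to 0.18. CLDN12 was at 8.91, 9.27 and 8.99 against 8.69 and 8.37, and TJP1, the scaffold ZO-1, at 8.92, 9.04 and 9.04 against 8.69 and 8.75. Both were higher in A549 (0.53 ± 0.15 and 0.28 ± 0.08 by limma, adjusted p = 0.0343 and 0.031), and both lost the call in the settings named above. MARVELD3, a MARVEL-domain membrane protein of tight junctions, was at 5.80, 5.86 and 5.57 against 6.04 and 6.0, and was not called (limma adjusted p = 0.0996) unless arrays were centred or quantile-normalized again. CLDN3 is the next gene to CLDN4 on its chromosome in the RefSeq order, with 0 protein-coding genes between. It had 7.52 on the A549 control and exactly 7.12 on the other 4 arrays, both CRL-5907 arrays included. With this tie the values do not show whether CLDN3 differed between the lines. CLDN18, a claudin of stomach and alveolar epithelium, lay below the medians on all arrays, from 4.55 to 4.66.

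Promoter sequence is shown for CLDN7 and CLDN4, the genes with the widest line difference, for CGN, called in the same direction, and for CRB3, which was not called between the lines. Each run is the 250 bases before a RefSeq transcript start on GRCh38.p14, in the direction of transcription. Capitals mark CACCTG or its reverse complement CAGGTG, the E-box that ZEB and SNAI repressors bind, and AACNGGTT, a form of the motif bound by grainyhead factors, searched on both strands. The motifs do not overlap in these windows. CLDN7 has 2 listed starts: the downstream one is shown, and the window of the other holds 0 E-boxes.
CLDN7, chr17:7262479-7262728, minus strand: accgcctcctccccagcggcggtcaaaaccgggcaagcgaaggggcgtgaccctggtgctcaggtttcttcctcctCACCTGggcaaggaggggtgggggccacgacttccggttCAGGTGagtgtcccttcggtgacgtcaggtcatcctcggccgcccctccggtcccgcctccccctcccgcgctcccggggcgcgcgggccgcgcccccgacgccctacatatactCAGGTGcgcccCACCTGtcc
CLDN4, chr7:73830746-73830995, plus strand: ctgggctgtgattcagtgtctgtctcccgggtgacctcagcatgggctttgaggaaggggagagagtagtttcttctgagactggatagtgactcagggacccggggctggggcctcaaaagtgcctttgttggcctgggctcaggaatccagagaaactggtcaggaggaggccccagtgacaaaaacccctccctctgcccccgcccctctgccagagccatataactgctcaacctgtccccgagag
CGN, chr1:151511137-151511386, plus strand: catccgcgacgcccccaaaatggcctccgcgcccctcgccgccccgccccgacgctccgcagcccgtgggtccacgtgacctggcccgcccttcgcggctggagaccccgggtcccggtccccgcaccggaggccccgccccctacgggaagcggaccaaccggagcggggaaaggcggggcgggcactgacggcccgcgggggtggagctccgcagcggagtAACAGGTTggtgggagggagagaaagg
CRB3, chr19:6464021-6464270, plus strand: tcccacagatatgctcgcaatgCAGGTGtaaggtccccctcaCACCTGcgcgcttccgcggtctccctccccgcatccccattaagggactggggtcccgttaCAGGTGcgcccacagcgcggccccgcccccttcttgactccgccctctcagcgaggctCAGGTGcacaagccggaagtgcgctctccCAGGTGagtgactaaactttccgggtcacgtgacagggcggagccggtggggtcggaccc

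The CLDN7 window holds 4 E-boxes, the nearest 3 bases before the start, and the CRB3 window holds 5, whereas CLDN4 and CGN hold 0. Of all 35116 RefSeq windows of this length 17.5% hold at least 1 E-box and 0.122% hold 4 or more. Promoters of 27 of the 47 genes were found in the table, in 38 windows, and 14 of these windows (36.8%), from 13 genes, hold an E-box. The grainyhead motif occurs in 1.49% of all windows and, among these genes, in CGN alone, 19 bases before its start. CRB3 passed the level filter only through the CRL-5907 control array, so its missing call between the lines says little. The motif matches are letters in a window, and binding was not measured. Whether E-boxes bear on the line differences was not tested.

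Of the polarity genes, PARD6B, the PAR6 subunit of the apical PAR complex, was at 8.66, 8.59 and 8.62 in A549 and 9.90 and 9.70 in CRL-5907. The lines did not overlap and the limma difference was -1.18 ± 0.09 (adjusted p = 0.000366), 2.36-fold between the controls. CRB3, the apical Crumbs protein, was at 5.66, 5.66 and 5.49 against 5.86 and 5.62. Its lines overlapped, and the limma interval ran from -0.43 to 0.16. Only its CRL-5907 control value lay above the array median, so these levels say little about a difference.

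Desmosome genes were split. DSC2, a desmosomal cadherin, was at 5.40, 5.89 and 5.69 in A549 and 6.65 and 6.73 in CRL-5907, a limma difference of -1.03 ± 0.15 (adjusted p = 0.00376). Its A549 control value lay below the array median, so the 2.37-fold difference of the controls is read as a lower bound. Desmoplakin, DSP, which ties desmosomes to keratin, had exactly 8.16 on all A549 arrays and 8.84 and 9.28 in CRL-5907. The limma difference was -0.90 ± 0.14 (adjusted p = 0.00441). PPL, periplakin, a linker of the desmosomal plaque to keratin, likewise had 5.64 on all A549 arrays and 6.04 and 6.11 in CRL-5907 (-0.44 ± 0.08, limma adjusted p = 0.00712). For both genes the tied A549 values add no spread to the fit, so the errors and p-values are too small to the extent that the tie hides variation. JUP, plakoglobin, shared by desmosomes and adherens junctions, went the other way at 10.15, 10.24 and 10.17 against 9.83 and 9.97 (0.28 ± 0.07, limma adjusted p = 0.0253). DSG2, the desmoglein of simple epithelia, was at 8.04, 8.2 and 8.07 against 8.05 and 8.21, and the plaque protein PKP3 lay between 6.52 and 6.55 on every array. PKP2, another plakophilin, was at 6.26, 6.34 and 5.99 against 6.36 and 6.82 and was likewise called only in those settings (limma adjusted p = 0.119 as deposited). The desmosomal genes of stratified epithelia stayed low: DSG3 at exactly 2.38 on all arrays, PKP1 at 4.51 to 4.60, and DSC3 at 3.84, 3.68 and 4.06 in A549 against 2.79 and 2.64. The DSC3 levels did not overlap between the lines, but both were below the medians.

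The keratins of simple epithelia (KRT7, KRT8, KRT18 and KRT19) were higher in A549, opposite to CLDN4 and CLDN7. KRT7 was at 10.93, 11.01 and 11.03 in A549 and 9.94 and 9.76 in CRL-5907, with no overlap and a limma difference of 1.14 ± 0.08 (adjusted p = 0.000319). The control arrays alone gave 1.99-fold, just under the threshold. KRT8 and KRT18 pair into filaments and are adjacent genes. KRT8 was at 11.69, 11.76 and 11.59 against 11.04 and 11.17 (0.57 ± 0.08, limma adjusted p = 0.00247), and KRT18 at 9.48, 9.51 and 9.54 against 9.03 and 9.11 (0.44 ± 0.07, limma adjusted p = 0.00462). KRT19, the smallest simple keratin, was at 6.76, 6.57 and 6.67 against 6.03 and 6.19 (0.55 ± 0.09, limma adjusted p = 0.00566). KRT80 was the exception, at 6.77, 6.71 and 6.75 in A549 and 7.64 and 7.79 in CRL-5907 (-0.97 ± 0.08, limma adjusted p = 0.00046). All 5 measured keratins were called by limma, 4 towards A549 and KRT80 towards CRL-5907, beside 31.8% and 17.7% of all genes tested. KRT7 and KRT80 are next to each other in the RefSeq order. Keratin genes are similar in sequence, and cross-hybridisation between them was not tested.

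Of the remaining adhesion genes, EPCAM, the epithelial adhesion molecule, was at 6.56, 7.18 and 6.82 in A549 and 8.0 and 8.22 in CRL-5907. The lines did not overlap, with a limma difference of -1.26 ± 0.19 (adjusted p = 0.00416) that lost its call without the overexpression array. CTNNB1, beta-catenin, was at 9.98, 10.09 and 10.05 against 9.64 and 9.79 (0.32 ± 0.08, limma adjusted p = 0.0202). ST14, the membrane protease matriptase, was at 5.08, 4.97 and 5.11 in A549, below the medians, and at 6.36 and 6.34 in CRL-5907 (-1.29 ± 0.09, limma adjusted p = 0.000364). RAB25, an epithelial GTPase of apical recycling, lay between 3.81 and 4.08 on all arrays, below the medians.

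Among the regulators only EHF passed the level filter in both lines. This ETS factor of epithelial cells was at 7.27, 7.45 and 7.39 in A549 and at 8.86 and 9.39 in CRL-5907. The groups did not overlap, and the limma difference was -1.75 ± 0.17 (adjusted p = 0.000836). OVOL2, a zinc finger repressor of mesenchymal genes, passed in CRL-5907 alone, with 5.39, 5.39 and 4.99 against 5.82 and 5.41 (limma adjusted p = 0.192). The splicing regulator ESRP1 was at 3.61, 3.29 and 3.30 in A549 and 4.91 and 4.86 in CRL-5907. Its groups were separate, but all 5 values were below the array medians. GRHL1 (3.57 to 3.75), GRHL2 (3.07 to 3.11), OVOL1 (4.62 to 4.67) and ELF3 (4.44 to 4.90) were also below them, so small differences there say little about the genes. In all, 10 of the 38 genes passed no filter: these 5 regulators, CLDN18, DSC3, DSG3, PKP1 and RAB25.

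With NEDD9 knockdown no listed gene rose or fell by 1.5-fold with both hairpins. NEDD9 itself fell by less than 1.5-fold with hairpin 2, so this count does not show how the genes respond to a stronger loss of NEDD9. The median difference over the 21 genes past the filter was 0.08 with hairpin 1 and 0.02 with hairpin 2, beside 0.10 and 0.04 over all 7485 genes. After the additional quantile normalization the hairpin 1 median over all genes moved to -0.00335, so small positive differences are read relative to the median of all genes. Of the 21 genes 12 were higher and 5 lower with both hairpins as deposited, and 7 and 9 after that normalization. limma over these 3 arrays (1 residual degree of freedom) called 0 of the 21 and 0 of all 7485 genes (0.0%) after Benjamini-Hochberg adjustment. At an unadjusted p under 0.05 it gave 1 of the 21 and 1312 of all genes. The lowest adjusted p among the 21 was 0.276, for CLDN3.

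EPCAM had the highest difference, 0.62 with hairpin 1 and 0.26 with hairpin 2 (0.44 ± 0.25, SD, n = 2, limma adjusted p = 0.472). Of the genes past the filter it was the sole member past 1.5-fold with either hairpin alone, where 2.57% of all genes were that much higher with hairpin 1 and 1.35% with hairpin 2. None of the 21 was 1.5-fold lower with either hairpin, beside 0.534% and 0.481% of all genes. DSC2 followed at 0.49 and 0.28 (0.39 ± 0.14, limma adjusted p = 0.372). It passed the filter only through the hairpin 1 array, where it is high, and lay below the array medians on the control and hairpin 2 arrays. The lowest was CLDN3 at -0.40 with both, which rests on the A549 control array alone, because both hairpin arrays hold the tied value of 7.12. CLDN7 differed by -0.63 and -0.56, past 1.5-fold with hairpin 1 and just short of it with hairpin 2, but its A549 levels did not pass the filter. The keratins were within -0.19 and 0.09 of control with either hairpin. PARD6B was at -0.07 and -0.04, JUP at 0.09 and 0.02, TJP1 at 0.12 and 0.11, CTNNB1 at 0.11 and 0.07 and EHF at 0.18 and 0.12. These all lay inside the middle 95% of differences between the hairpin arrays. DSP showed a difference of 0.00 with both hairpins from tied values, which does not show that it was unchanged.

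**Figure D3:**
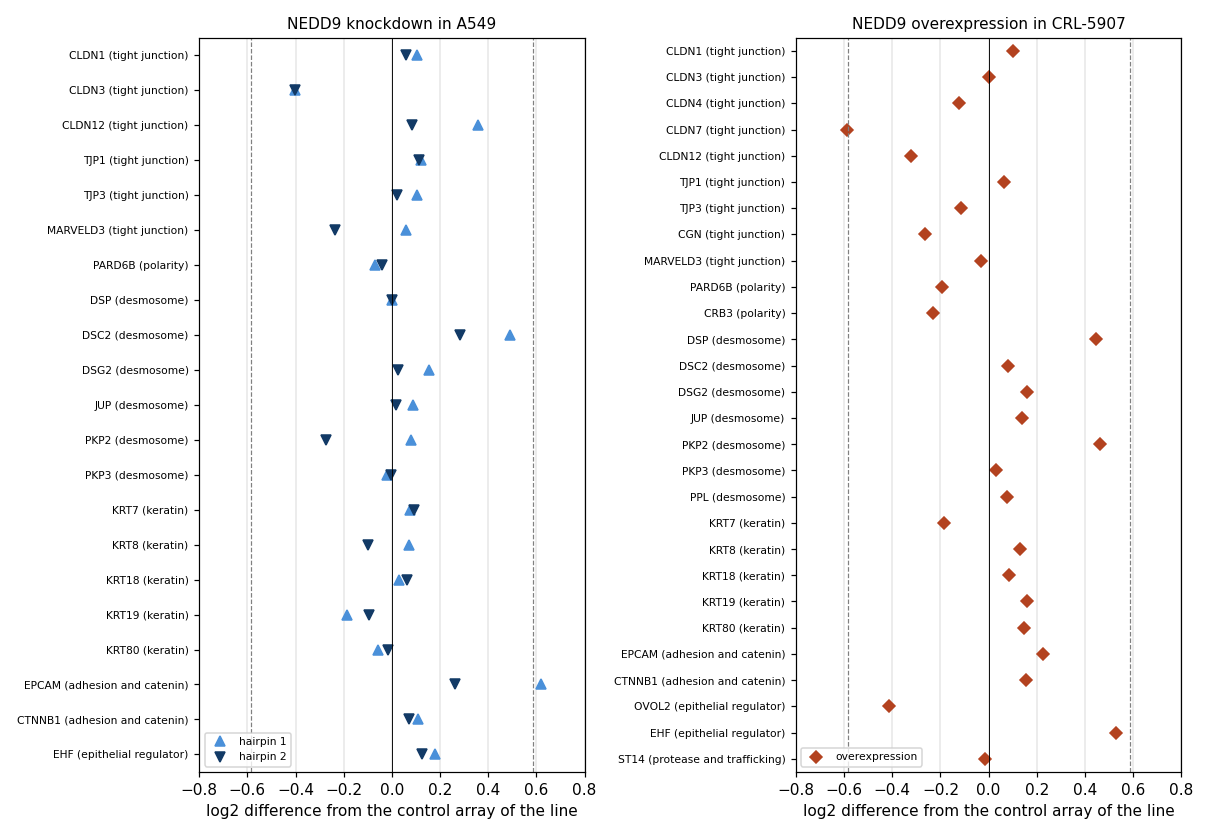
Log2 difference from the control array of the line (horizontal axis) for 21 genes in A549 (left; hairpin 1 upward, hairpin 2 downward triangles) and 28 genes in CRL-5907 (right; diamonds). Each point is 1 array minus the unreplicated control, and dashed lines mark 1.5-fold. EPCAM with hairpin 1 (0.62) and CLDN7 with overexpression (-0.59) are the points past them.

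With NEDD9 overexpression CLDN7 fell from 7.49 to 6.90, a difference of -0.59 that just passed 1.5-fold. With 1 array in each condition no overexpression difference has a replicate check, and no test was made. CLDN7 had the same sign, on separate control arrays, with the hairpins in A549, where NEDD9 was lowered. Its A549 levels lay below the array medians, however, and both hairpin differences rest on the same unreplicated control. OVOL2 (-0.41) and CLDN12 (-0.32) were also beyond the middle 95% of hairpin differences on the lower side. EHF (0.53), PKP2 (0.46) and DSP (0.45) were beyond it on the higher side. Over all genes 9.51% were as high and 6.45% as low. EHF therefore moved further from its A549 level and CLDN7 nearer to it. Of 9 tight junction genes past the filter 6 were lower, among them CGN (-0.27) and CLDN4 (-0.12), and the group median was -0.12, where 2778 of all 7410 genes were lower. After centring 7 of the 9 were lower, and after the additional quantile normalization 8 were. Both polarity genes were lower, PARD6B by -0.19 and CRB3 by -0.23. OVOL2, CGN and CRB3 passed the filter only through the CRL-5907 control array, where they are high. With overexpression they lay below the array median, at 5.41, 5.54 and 5.62. Their differences, and the tight junction and polarity counts that hold CGN and CRB3, are given as descriptions. All 7 desmosome genes were higher as deposited, with a median of 0.14 beside 0.05 over all genes, of which 4350 of 7410 were higher. None of the 7 passed 1.5-fold. After centring or the additional quantile normalization 6 of 7 were. Of 5 keratins 4 were higher by 0.08 to 0.16 and KRT7 was at -0.19, and 3 of 5 were higher after quantile normalization. EPCAM was at 0.23, CTNNB1 at 0.15 and ST14 at -0.02.

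A second list of 114 junction, keratin and epithelial genes, none of them in the first, gave 89 measured genes. Between the controls 1 of 41 past the filter was 2-fold higher in A549 and 4 were 2-fold higher in CRL-5907, beside 9.88% and 5.0% of all genes. All 4 belong to the membrane and trafficking group, in which 6 of 7 genes past the filter were called towards CRL-5907 by limma, beside 17.7% of all genes. Of the 6, AP1M2, S100A14, RAB11FIP1 and MYO5B passed the filter only through CRL-5907, where they are high, so this count is given as a description. MAL2, a protein of apical transport, was at 8.51, 8.77 and 7.92 in A549 against 11.99 and 11.93 in CRL-5907 (-3.56 ± 0.25, limma adjusted p = 0.000316). SPINT1, the membrane inhibitor of matriptase, was at 6.35, 6.24 and 6.34 against 9.63 and 9.82 (-3.41 ± 0.09, limma adjusted p = 3.33e-05), so enzyme and inhibitor were both higher in CRL-5907. S100A14 was at 4.63, 4.43 and 4.40 against 7.41 and 7.48 (-2.96 ± 0.11, limma adjusted p = 5.59e-05). MYO5B, the motor that works with RAB11 vesicles, was at 5.08, 5.40 and 5.13 against 6.68 and 6.87 (-1.57 ± 0.13, limma adjusted p = 0.00053). For S100A14 and MYO5B the A549 levels lay below the array medians.

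The gene that was 2-fold higher in A549 was MPDZ, a multi-PDZ scaffold of tight junctions, at 6.93, 7.15 and 6.93 against 5.88 and 6.29 (0.92 ± 0.15, limma adjusted p = 0.00475). AMOTL1, an angiomotin-family protein of tight junctions, was at 6.02, 6.22 and 6.05 against 5.14 and 5.34 (0.86 ± 0.11, limma adjusted p = 0.00245), with its CRL-5907 levels below the array medians. NECTIN3, an adherens junction adhesion protein, differed by 0.83 between the controls and ZEB1, a repressor of epithelial genes, by 0.81. ZEB1 was at 6.61, 6.74 and 6.60 against 5.80 and 5.82 (0.84 ± 0.08, limma adjusted p = 0.000736). CDH1, E-cadherin, was at 8.87, 9.09 and 8.96 in A549 and 8.38 and 8.29 in CRL-5907 (0.64 ± 0.09, limma adjusted p = 0.00342). This core adherens junction gene was higher in the line with lower CLDN4, CLDN7 and EPCAM. KRT14, the only second-list keratin past the filter, was also higher in A549, at 6.72, 6.71 and 6.34 against 6.09 and 6.14 (0.48 ± 0.14, limma adjusted p = 0.0328). None of the 37 second-list genes past the filter in A549 passed 1.5-fold with both hairpins. Over all genes 0.708% were that much higher with both and 0.134% lower. With overexpression 1 of 39 was 1.5-fold higher (3.5% of all genes), PATJ, a Crumbs complex scaffold, at 7.26 and 7.92 in CRL-5907 (0.66). Of the 39, 0 were 1.5-fold lower, beside 0.85% of all genes.

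**Figure D4:**
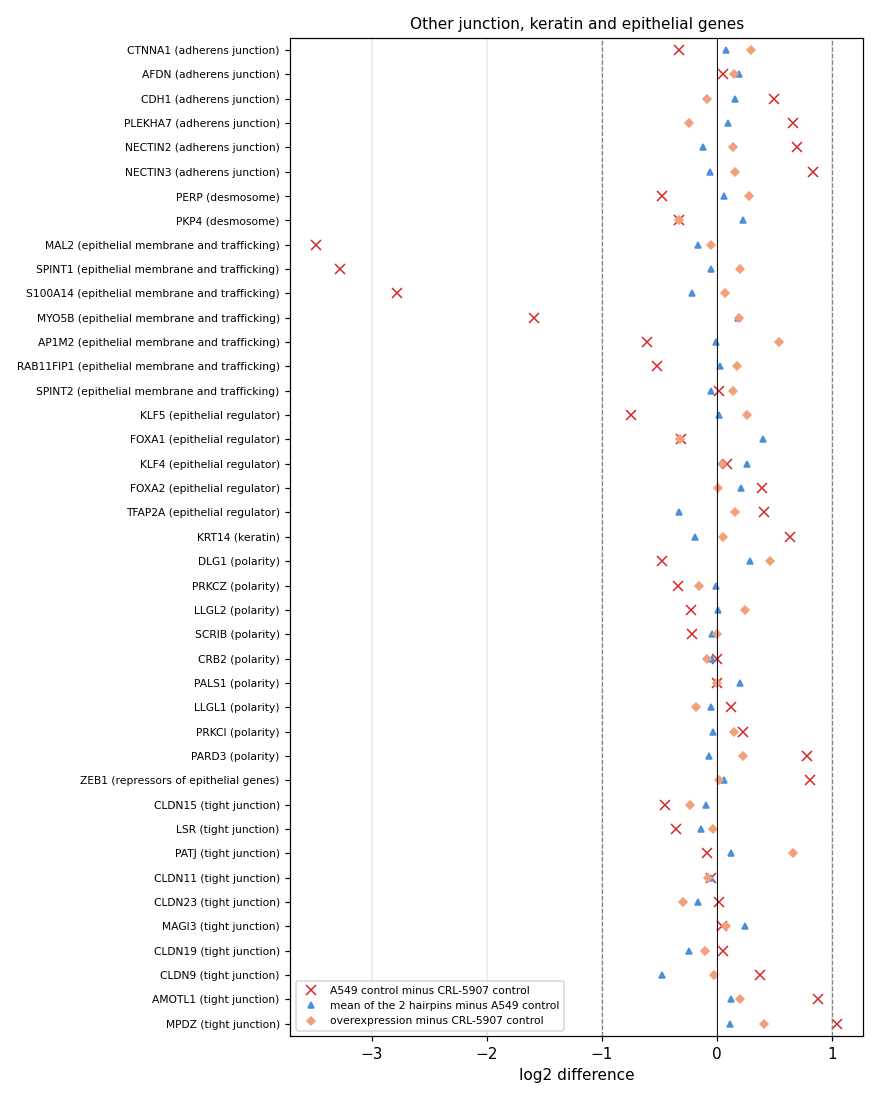
Log2 differences (horizontal axis) of second-list genes past the level filter between the controls. Crosses are A549 control minus CRL-5907 control, triangles the mean of the hairpins minus their control, diamonds overexpression minus control, and dashed lines 2-fold. MAL2, SPINT1, S100A14 and MYO5B lie left of the lower line.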

How the data were processed

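Total RNA was depleted of ribosomal RNA, amplified to cDNA, labelled with biotin and hybridised to 5 arrays, as the labels' protocols state. Levels of 22011 features were deposited as log2 values. The submitters' processing notes name RMA and Affymetrix Power Tools. RMA corrects background, quantile-normalizes the arrays and summarises probes. Values from 0.58 to 13.09 were read as base 2, the scale RMA gives. Versions and genome build are not given in the sources used here, so genes have no array coordinates. Platform annotation gave 14432 features 1 symbol, 2408 several and 5171 none. Samples were grouped by title; for hairpin 2 the title says NEDD9 and the description NEDD10. limma 3.58.1 in R 4.3.3 (lmFit, eBayes with trend, Benjamini-Hochberg at 0.05) was fitted on all genes past the level filter and checked on simulated data. Differences from an unreplicated array received no test. Members, lists, folds and motifs were chosen with earlier results of these data known. All 38 measured members are given. Of the second list, the 3 furthest each way between lines and those past 1.5-fold were named. MYO5B, AP1M2, RAB11FIP1, KRT14, ZEB1 and CDH1 were named after their values were seen. Alternatives were array scaling, the mean of a gene's features, level filter, fold, variance trend and arrays left out.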

Additional observations from a re-analysis of the deposited data

How the results depend on the processing

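No paired analysis was possible because the groups compared share fewer than 2 replicate numbers. No listed gene was called with knockdown by limma under any of 6 alternatives. At 1.5-fold the knockdown count was 0 to 1 higher (EPCAM, with hairpin 1 alone) and 0 lower when either hairpin was left out. CLDN7 was the lower gene with overexpression under every scaling and level filter tried, and 0 genes remained at a 2-fold threshold. Between the controls the 8 genes higher in CRL-5907 became 5 with a level filter at the 75th percentile and 2 (CLDN4 and CLDN7) at 4-fold, and without a filter 1 gene, DSC3, was higher in A549. limma called 4 genes higher in A549 after an additional quantile normalization, and 4 to 8 with 1 array left out. Leaving out 1 array gave 10 to 12 genes higher in CRL-5907, and centring or the additional quantile normalization gave 14, adding MARVELD3 and PKP2. The lone array of a line is then assumed to vary like the others. Without hairpin 1 or hairpin 2 fewer of all genes were called as well. The 9 overexpression and control differences of called genes, and the EPCAM knockdown mean, moved by less than the spread between the hairpin arrays under each scaling. Array number limits all of these results: neither control nor the overexpression array has a replicate.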

Other observations

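The claudins CLDN6 and CLDN9, neighbours in the RefSeq order with 0 protein-coding genes between, had lower values on both hairpin arrays than on the single A549 control array, on which each difference rests, and neither was called. CLDN6, a claudin of embryonic epithelia, was at 5.08 on the A549 control, 3.68 with hairpin 1 and 3.63 with hairpin 2, differences of -1.40 and -1.45. CLDN9 was at 5.94, 5.36 and 5.55, differences of -0.58 and -0.38, under 1.5-fold with both (limma adjusted p = 0.324). In CRL-5907 CLDN6 was at 3.26 and 3.35 and CLDN9 at 5.56 and 5.54. All CLDN6 values were below the array medians, so CLDN6 entered no count. Both genes were singled out after their values were seen. LYZ, lysozyme, a leukocyte marker that epithelia also express, was at 3.55 on the A549 control and at 5.55 and 5.34 with the hairpins, all below the array medians.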
